A study of Ictalurus furcatus with 16 samples.

Results

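The comparison set the testes of 4 male blue catfish labelled age 9 against those of 4 males labelled age 4. Blue catfish (Ictalurus furcatus) is a large freshwater catfish of North America. The 8 libraries are all those that carry either age in their labels, out of 16 in a series that also sampled ages 2 and 7, with 4 fish per age and 1 RNA-seq library per fish. The labels give the ages without a unit, and they name no strain, season, body size or stage of maturity, so these may differ between the ages. The libraries of age 7 entered the model only to help estimate the spread between fish, and their levels are given as a description. The series asks how RNA levels in the testis differ with age.

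In the fish testis, germ cells develop in cysts. Each cyst is a clone of germ cells wrapped by Sertoli cells, and it passes together through mitotic divisions of spermatogonia, meiosis and the shaping of sperm tails. Between the tubules lie Leydig cells, which make androgens, together with blood vessels, contractile peritubular cells and immune cells, above all macrophages. A piece of testis therefore mixes many cell types. In bulk RNA, fewer cells of a type and less RNA per cell cannot be told apart, and this holds for every result here. Gene roles below are those known from other vertebrates, chiefly mammals and zebrafish.

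Counted fragments per library ran from 20541746 to 24610501 over the 8 testes. The deposited counts gave 5136717 to 7041743 of them to a single transcript, a share of 23.8% to 30.4%. Nuclear ribosomal RNA took 10.7% to 13.2% of assigned fragments at age 9 and 5.69% to 15.8% at age 4. Levels are given as CPM, each count scaled to a common library total after TMM scaling, which corrects for library composition. They are not corrected for gene length, so they are compared only between libraries. Genes of testis cell types were present at both ages. The recombinase dmc1, made in meiosis, lay between 59.2 and 74.4 CPM at age 9 and between 91.2 and 123 CPM at age 4. The Sertoli cell gene gsdf lay between 248 and 531 CPM at age 9 and between 129 and 259 CPM at age 4. The Leydig cell hormone insl3 lay between 55.4 and 927 CPM at age 9 and between 41.3 and 579 CPM at age 4. The germ cell helicase ddx4 had only 1 count at age 9 and 5 at age 4. Counts were deposited per transcript and ddx4 has 10 transcripts. Of protein-coding genes with 1 transcript, 77.7% had enough counts to be tested, against 37.8% of those with more. Genes with many isoforms are therefore largely missing from what follows. A gene given below as without counts may have lost its fragments in this way, so the lack of counts does not show that it was silent.

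No gene passed the threshold. Of 15171 genes tested, edgeR called 0 (0.0%) at a Benjamini-Hochberg adjusted p below 0.05, and the smallest adjusted p, 0.0683, was shared by 16 genes, 9 of them known only by a LOC number. At an unadjusted p below 0.05 there were 2183 genes (14.4%), of which 1367 were higher at age 9 (9.01%) and 816 were lower (5.38%). In 1281 genes (8.44%) the 4 libraries of one age all lay above the 4 of the other; age 9 was the higher in 861 (5.68%) and the lower in 420 (2.77%). These shares are the background for every gene group below. Over all tested genes the median log2 difference of age 9 over age 4 was -0.004.

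Other tools set on the same counts gave between 0 and 372 calls. DESeq2 called 372 genes (2.72%), 254 higher at age 9 (1.86%) and 118 lower (0.862%). Of the 372, 329 showed no overlap between the ages. Calls and overlap come from the same counts, so the overlap is no separate support for the calls. The voom method of limma, which weights libraries by quality, called 33 genes (0.218%), 28 of them higher at age 9 (0.185%) and 5 lower (0.033%), and DESeq2 called 32 of these 33. An edgeR fit on the 8 libraries alone called 8 genes (0.0545%), all higher at age 9. Without age 9 replicate 2 edgeR called 11 genes, of which 9 were higher and 2 lower. In simulated counts of 14814 genes with the spread of these libraries and few genes changed, edgeR called 17.4% of planted 2-fold differences. The share was 68.7% at 4-fold and 90.4% at 8-fold. Since edgeR called none of the differences described below, each is given as higher or lower in these fish.

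On principal component 2 of the 500 most variable genes, which held 19.3% of their variance, the age 9 libraries scored between 4.84 and 22.9 and the age 4 libraries between -19.9 and 1.84. The age 7 libraries scored between -16.3 and 1.45, within the range of age 4. Component 1, with 21.2% of the variance, did not separate the ages.

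**Figure D1:**
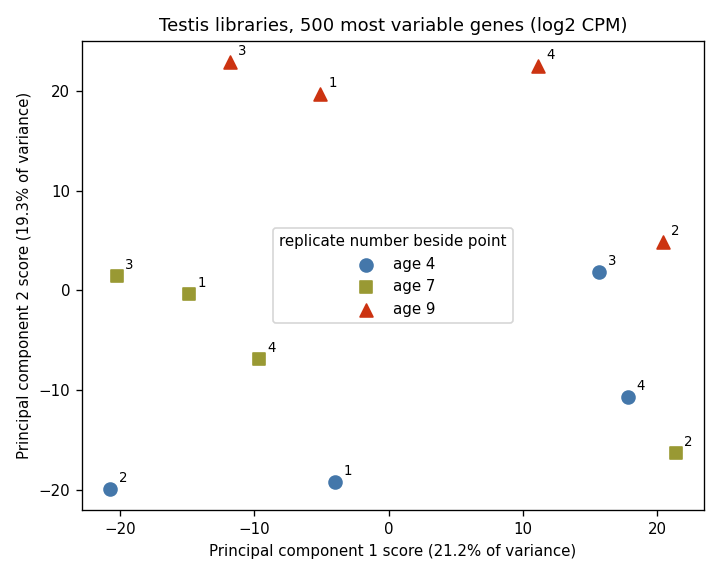
Scores of the 12 testis libraries of ages 4, 7 and 9 on the first pair of principal components of the 500 most variable genes (log2 CPM). Each point is 1 fish with its replicate number. On the vertical axis all 4 age 9 libraries lie above all others, the lowest of them at 4.84.

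Antiviral genes were among those that stood higher at age 9. Interferons are cytokines released when a cell detects foreign nucleic acid. Through STAT and IRF transcription factors they switch on a broad set of effector genes. Of 15 interferon-induced effectors tested, 7 were higher at age 9 (46.7%) and 1 was lower (6.67%) at an unadjusted p below 0.05. Over all tested genes these shares were 9.01% and 5.38%. The median log2 difference of the 15 was 1.01. Because 0 of the 15 passed the adjusted threshold in edgeR, these counts describe the 8 fish. The summed level of the 15 lay between 1198 and 2540 CPM at age 9 and between 453.5 and 1211 CPM at age 4. These ranges overlapped, as did the list means, with age 4 replicate 3 at 5.40 log2 CPM and age 9 replicate 4 at 5.01. DESeq2 called 3 of the 15, usp18, ifi35 and mxa, at adjusted p-values of 0.0161, 0.0262 and 0.0276. Over all genes with an adjusted p it called 2.72%.

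The antiviral GTPase mxa had 192, 136, 381 and 155 CPM in the age 9 testes, against 49.0, 50.8, 121 and 33.5 CPM in the age 4 testes. Every age 9 testis lay above every age 4 testis, and the highest value was that of replicate 3 at age 9 and also at age 4. The difference was 1.77 ± 0.51 on the log2 scale (SE; edgeR adjusted p = 0.18). The deconjugase usp18, which removes the ubiquitin-like tag Isg15 and damps interferon signalling, had 65.8, 67.7, 101 and 50.1 CPM at age 9 and 19.97, 25.8, 49.3 and 17.2 CPM at age 4. The 2 ranges came within 1 CPM of touching without overlapping. Its log2 difference was 1.34 ± 0.34 (SE; edgeR adjusted p = 0.162), the smallest p of the list. The effectors helz2a, cmpk2 and ifi35 also showed no overlap, at log2 differences of 1.89, 1.68 and 1.101. The tag itself, isg15, had 137, 83.5, 371 and 69.4 CPM at age 9 and 15.1, 52.3, 131 and 7.42 CPM at age 4. Its ages overlapped, and its spread within an age was wide (log2 difference 1.69 ± 0.91, SE; edgeR adjusted p = 0.43). Of the 15 effectors 2 had a negative difference. The nucleotide-cleaving restriction factor samhd1 was at -0.14 ± 0.17 (SE; edgeR adjusted p = 0.768), with overlap. The other, dtx3lb.2, of a family of ubiquitin ligases, had 0 counts in the 4 age 9 testes and 76 in the 4 age 4 testes. Against 3 counts over the group it was at least 21.98-fold lower at age 9. It has 3 transcripts, and 1 age 4 testis had only 0.265 CPM.

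Sensors of viral nucleic acid, which start the interferon response, showed the same direction. Of 15 tested, 6 were higher at age 9 at an unadjusted p below 0.05 and 0 were lower; 4 showed no overlap. The cytosolic RNA sensor rigi had 981, 822, 1387 and 869 CPM at age 9 and 244, 396, 624 and 113 CPM at age 4. All 4 age 9 testes were above the highest age 4 testis, and the age 4 testes spread over a wide range (log2 difference 1.56 ± 0.56, SE; edgeR adjusted p = 0.256). The related helicase dhx58, which tunes that sensor, had 380.3, 399, 701 and 349 CPM at age 9 and 136, 153, 235 and 97.5 CPM at age 4. It had the smallest p of the sensors, at a log2 difference of 1.56 ± 0.34 (SE; edgeR adjusted p = 0.122). The third helicase of the family, ifih1, had a log2 difference of 1.62 and did not overlap. DESeq2 called dhx58 and ifih1, at adjusted p-values of 0.00281 and 0.0166. For dhx58 the age 7 testes, at 204, 82.5, 204 and 153 CPM, lay below all age 9 testes, with replicate 2 also below the lowest age 4 testis.

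Among 19 IRF and STAT factors tested, 7 were higher at age 9 (36.8%) at an unadjusted p below 0.05 and 0 were lower. No overlap was seen in 5, all higher (26.3%). Over all tested genes 9.01% were higher at that p, and 5.68% were higher without overlap. The myeloid and interferon factor irf8 had 25.2, 22.02, 17.1 and 31.6 CPM at age 9 and 4.38, 13.1, 12.4 and 11.62 CPM at age 4. Its age 4 testes included 1 far below the other 3, and the ages did not overlap (log2 difference 1.21 ± 0.35, SE; edgeR adjusted p = 0.187). The partners of the interferon-activated complex, irf9 and stat2, had log2 differences of 1.17 and 0.98, both without overlap, while stat1b, at 1.73, overlapped. Both STAT genes have 3 transcripts. The median over the 19 factors was 0.28, and 0.50 without age 4 replicate 4. Without age 4 replicate 1 or 2 the count of 7 became 4.

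**Figure D2:**
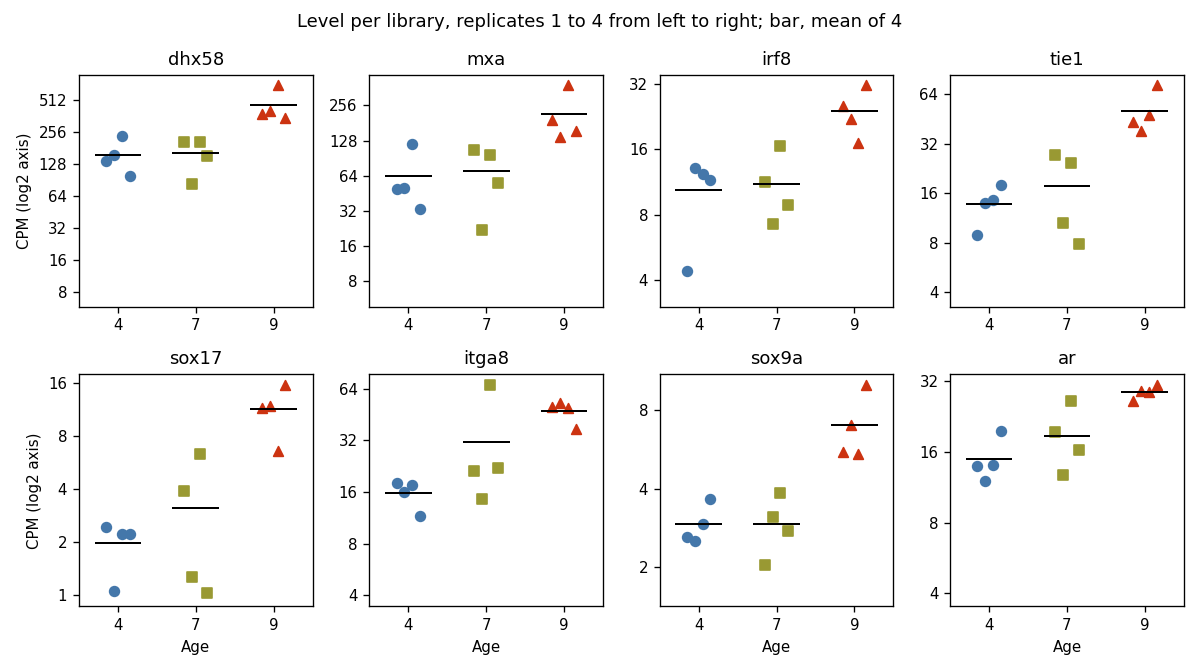
Levels of 8 genes per testis (CPM, log2 axis) at ages 4, 7 and 9, with a bar at the mean of the 4 fish. All 8 genes shown are ones without overlap between ages 9 and 4, and mxa and sox17 were named after their values were seen. Genes that overlapped, such as isg15, acta2, gsdf and amh, are not shown, so the panels do not represent their lists. For dhx58 the testes lie between 349 and 701 CPM at age 9 and between 97.5 and 235 CPM at age 4.

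Genes for presenting peptides to T cells followed in part. Of 16 tested, 4 were higher at an unadjusted p below 0.05 and 0 were lower, with a median of 0.33. The peptide-trimming enzyme erap1b had 90.4, 71.8, 89.5 and 108 CPM at age 9 and 42.4, 31.8, 40.2 and 48.3 CPM at age 4. The ages stood well apart (log2 difference 1.15 ± 0.26, SE; edgeR adjusted p = 0.141). Its paralog erap1a had a log2 difference of 1.26, also without overlap. The peptide-loading gene tapbpl was at 1.097 and its ages overlapped.

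Markers of immune cells were examined beside these genes. Of 24 macrophage and myeloid markers tested, 20 had a positive difference, with a median of 0.63. At an unadjusted p below 0.05, 5 were higher at age 9 (20.8%, against 9.01% of all tested genes) and 0 were lower. Without age 9 replicate 4 the count was 3 and the median 0.34. The count was also 3 without age 4 replicate 1, with a median of 0.39, and without age 4 replicate 4. The summed level of the 24 lay between 1946 and 2955 CPM at age 9 and between 1315 and 2057 CPM at age 4, and these ranges overlapped. The smallest p of this list belonged to irf8, which is also counted among the IRF and STAT factors above. The pore-forming macrophage gene mpeg1.1 had 23.1, 21.8, 19.8 and 47.5 CPM at age 9 and 4.06, 12.2, 23.0 and 10.6 CPM at age 4. Replicate 4 was the highest age 9 testis, and 1 age 4 testis lay inside the range of age 9 (log2 difference 1.17 ± 0.50, SE; edgeR adjusted p = 0.319). The lysosomal marker cd68 was at a log2 difference of 0.89, and its ages overlapped. Macrophage markers mrc1a and tyrobp had no counts at either age. The part of these cells in the differences of the interferon genes was not tested.

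Of 11 lymphocyte markers tested, 2 were higher at age 9 at an unadjusted p below 0.05 and 0 were lower. These 2 are 18.2%, against 9.01% of all tested genes. Only 1 member (9.09%) was higher without overlap, against 5.68% of all tested genes. The T cell kinase itk had 7.52, 10.6, 7.99 and 7.13 CPM at age 9 and 2.92, 3.31, 4.63 and 2.52 CPM at age 4, without overlap (log2 difference 1.31 ± 0.37, SE; edgeR adjusted p = 0.178). The B cell receptor subunit cd79a was at 0.53 with overlap. The summed level of the 11 markers lay between 163.7 and 215 CPM at age 9 and between 113 and 179 CPM at age 4. A set of 8 further lymphocyte markers in the tables, among them il7r and ikzf1, had no counts at either age.

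Among 31 cytokines, chemokines and their receptors tested, 6 were higher (19.4%) at an unadjusted p below 0.05 and 2 were lower (6.45%). Over all tested genes these shares were 9.01% and 5.38%, so the lower side was near the background. The cytokine il15, which sustains lymphocytes, had 18.4, 27.8, 18.9 and 19.9 CPM at age 9 and 6.50, 13.4, 6.18 and 5.04 CPM at age 4. No age 4 testis reached the level of any age 9 testis (log2 difference 1.44 ± 0.38, SE; edgeR adjusted p = 0.172). The chemokine cxcl18b averaged 20.9 ± 6.92 CPM at age 9 and 4.13 ± 2.83 CPM at age 4 (SD, n = 4 each), a log2 difference of 2.34, without overlap. The chemokine ccl25a, which draws lymphocytes, was lower, at 1.37 ± 0.783 CPM against 4.46 ± 1.72 CPM (SD, n = 4 each), a log2 difference of -1.69. Of 12 complement and acute phase genes tested, 2 were higher (16.7%, against 9.01% of all tested genes) and 0 lower. The complement component c6, part of the membrane attack complex, had 1362, 1474, 1347 and 1154 CPM at age 9 and 452, 582, 502 and 598 CPM at age 4. Both ages were tight and far apart, while the age 7 testes, at 1091, 282, 1820.0 and 326 CPM, spread across both. The log2 difference of c6 was 1.32 ± 0.46 (SE; edgeR adjusted p = 0.246). In the edgeR fit on the 8 libraries, without age 7, it passed with an adjusted p of 0.0487. The upstream component c4 had a log2 difference of 1.53, without overlap.

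Blood vessel and contractile cell genes were the other large group that stood higher. Endothelial cells line the vessels, and smooth muscle and peritubular cells surround vessels and tubules. Of 27 endothelial markers tested, 11 were higher (40.7%) at an unadjusted p below 0.05 and 0 were lower. No overlap was seen in 8, all higher (29.6%). Over all tested genes 9.01% were higher at that p, and 5.68% were higher without overlap. The 27 markers had a median of 0.60. Their summed level lay between 1279 and 1855 CPM at age 9 and between 918 and 1243 CPM at age 4, without overlap. DESeq2 called 6 of the 27, among them sox17, tie1 and vwf, at adjusted p-values of 0.00072, 0.000794 and 0.00485. Its share of calls over all genes was 2.72%.

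The receptor kinase tie1, which stabilises vessels, had 43.3, 38.5, 47.6 and 72.7 CPM at age 9 and 8.93, 13.9, 14.6 and 17.9 CPM at age 4. The lowest age 9 testis was above the highest age 4 testis by a wide margin (log2 difference 1.87 ± 0.38, SE; edgeR adjusted p = 0.0963). The vessel transcription factor sox17 had 11.63, 11.8, 6.55 and 15.6 CPM at age 9 and 2.44, 1.06, 2.23 and 2.24 CPM at age 4. Its log2 difference was 2.51 ± 0.53 (SE; edgeR adjusted p = 0.0987), and the ages did not overlap. Its relative sox18 was at 2.02 without overlap. The clotting protein vwf, stored by endothelial cells, had 66.0, 41.8, 82.2 and 154 CPM at age 9 and 22.7, 29.9, 27.97 and 19.6 CPM at age 4, a log2 difference of 1.78 ± 0.41 (SE; edgeR adjusted p = 0.141). The endothelial genes she, stab1, clec14a and acvrl1 had log2 differences of 1.18, 1.09, 1.09 and 1.56, each without overlap. The VEGF receptor kdrl and the junction cadherin cdh5 were at 1.06 and 0.73, both with overlap. Of the 27 markers 4 had a negative difference, among them plvapb, of vessel pores, at -0.71 with overlap. Clotting factor f8, which in mammals comes from endothelial cells but was not on the list, had 14.3, 2.04, 52.3 and 16.1 CPM at age 9 and 0.649, 0.662, 1.03 and 0.84 CPM at age 4. Its difference was the largest positive one among the genes named here, at 4.71 ± 0.95 (SE; edgeR adjusted p = 0.0963), with age 9 replicate 2 close to age 4. It was called when age 9 replicate 2 was left out, at an adjusted p of 0.0434.

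Of 24 smooth muscle and peritubular markers tested, 11 were higher (45.8%) at an unadjusted p below 0.05 and 0 were lower. No overlap was seen in 4, all higher (16.7%). Over all tested genes 9.01% were higher at that p, and 5.68% were higher without overlap. The 24 markers had a median difference of 0.98. Their summed level lay between 5621 and 14920 CPM at age 9 and between 4296 and 6062 CPM at age 4, with overlap. The list means did not overlap, but the lowest at age 9, 5.39 log2 CPM, lay close to the highest at age 4, 5.34. The integrin subunit itga8, which anchors contractile cells to the matrix, had 50.3, 52.7, 49.5 and 37.2 CPM at age 9 and 18.02, 16.0, 17.7 and 11.62 CPM at age 4. Both ages were narrow and separate, while age 7 ran between 14.6 and 67.3 CPM. Its log2 difference was 1.58 ± 0.39 (SE; edgeR adjusted p = 0.161). It passed in the fit on the 8 libraries, at an adjusted p of 0.0487, and with voom, at 0.046. Smooth muscle actin acta2 had 4627, 2367, 8439 and 4664 CPM at age 9 and 2369, 2847, 1608 and 2206 CPM at age 4. Age 9 replicate 2 lay among the age 4 testes and replicate 3 stood far above the rest (log2 difference 1.15 ± 0.38, SE; edgeR adjusted p = 0.223). Desmin, desmb, and the actin-bundling gene synpo2b were at 1.35 and 1.22, with overlap in desmb only. Without age 9 replicate 1 the number of these markers at an unadjusted p below 0.05 was 6 and the median 0.64. It was 6 also without age 4 replicate 4, and 7 without age 4 replicate 1. Tagln and 4 other members had no counts at either age.

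Matrix genes were more often higher than lower. Of 60 collagens and matrix genes tested, 46 had a positive and 14 a negative difference, with a median of 0.32. At an unadjusted p below 0.05, 11 were higher (18.3%) and 4 were lower (6.67%). Over all tested genes these shares were 9.01% and 5.38%, so the lower side was near the background. No overlap was seen in 4 higher (6.67%) and 2 lower members (3.33%), near the 5.68% and 2.77% of all tested genes. The proteoglycan decorin, dcn, had 478, 426, 627 and 645 CPM at age 9 and 193, 311, 266 and 342 CPM at age 4, without overlap (log2 difference 0.97 ± 0.34, SE; edgeR adjusted p = 0.24). The collagen cross-linking enzyme loxa and the fibril-associated collagen col12a1b were at 0.86 and 0.82 without overlap. The fibrillar collagen col1a2 averaged 240.3 ± 48.6 CPM at age 9 and 242 ± 80.8 CPM at age 4 (SD, n = 4 each). On the lower side stood thbs4b, a matrix thrombospondin, with 3.58, 3.15, 4.16 and 1.87 CPM at age 9 and 24.5, 15.4, 17.3 and 4.20 CPM at age 4. The lowest age 4 testis nearly met the highest age 9 testis (log2 difference -2.26 ± 0.52, SE; edgeR adjusted p = 0.141).

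Of 45 growth factor and IGF signalling genes tested, 6 were higher (13.3%) at an unadjusted p below 0.05 and 0 were lower. No overlap was seen in 5 members, all higher at age 9. Over all tested genes 9.01% were higher at that p, and 5.68% were higher without overlap. The median of the list was only 0.22. The receptor pdgfrb, carried by pericytes and other mesenchymal cells, had 177, 129.5, 171 and 158 CPM at age 9 and 62.4, 116, 85.3 and 90.9 CPM at age 4 (log2 difference 0.84 ± 0.25, SE; edgeR adjusted p = 0.194). No age 4 testis reached the age 9 range. A ligand of that receptor, pdgfbb, averaged 31.02 ± 5.79 CPM at age 9 and 15.4 ± 4.46 CPM at age 4 (SD, n = 4 each), also without overlap. The insulin-like growth factors igf2a and igf2b were at 1.104, without overlap, and at 0.64, with overlap.

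**Figure D3:**
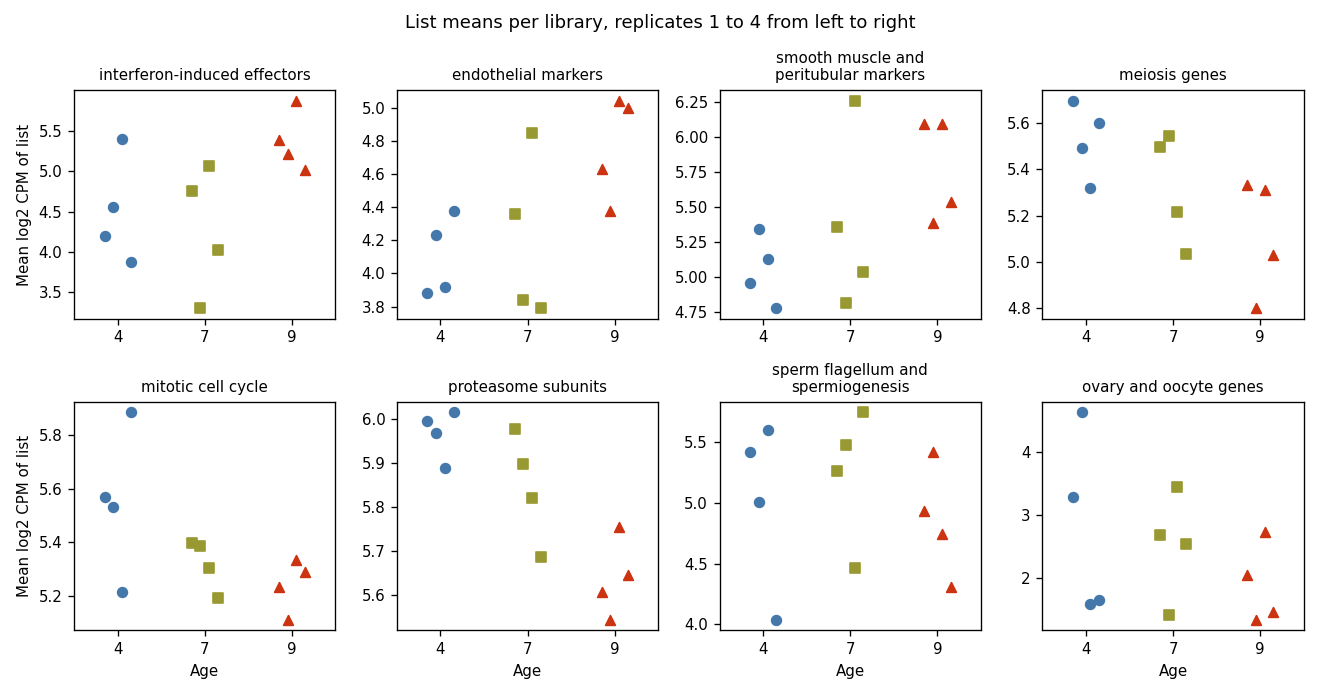
Mean log2 CPM over the members of 8 gene lists, per testis, at ages 4, 7 and 9. Endothelial and smooth muscle lists are higher and the proteasome list is lower in all 4 age 9 testes than in all 4 age 4 testes; the other 5 lists overlap between these ages.

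Sertoli cell genes were higher for part of the list. Of 24 tested, 5 were higher without overlap (20.8%, against 5.68% of all tested genes). The median of the 24 was 0.48. At an unadjusted p below 0.05, 7 were higher (29.2%, against 9.01% of all tested genes) and 0 were lower. Without age 9 replicate 4 the count was 4 and the median 0.26. The transcription factor sox9a, which holds Sertoli cell identity, had 5.55, 7.03, 5.43 and 10.02 CPM at age 9 and 2.60, 2.52, 2.92 and 3.64 CPM at age 4. The ages were separate, and the age 7 testes, between 2.03 and 3.83 CPM, lay around the range of age 4 (log2 difference 1.26 ± 0.31, SE; edgeR adjusted p = 0.157). The FSH receptor fshr, through which the pituitary drives Sertoli cells, had 225, 226, 299 and 248 CPM at age 9 and 179, 177, 154 and 149 CPM at age 4, without overlap (log2 difference 0.60 ± 0.18, SE; edgeR adjusted p = 0.199). The growth factor gsdf was at 1.03 with overlap. Anti-Müllerian hormone, amh, which restrains germ cell differentiation in fish, had 68.2, 159, 102 and 248 CPM at age 9 and 81.3, 68.4, 80.3 and 289 CPM at age 4. Its 2 ages covered the same range (log2 difference 0.15 ± 0.56, SE; edgeR adjusted p = 0.933), and the sign turned when any of 4 testes was left out. Members dmrt1, wt1a, wt1b and tjp1a had no counts at either age.

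Of 21 Leydig cell and steroid genes tested, 2 were higher (9.52%) at an unadjusted p below 0.05 and 2 were lower (9.52%). Over all tested genes these shares were 9.01% and 5.38%. No overlap was seen in 1 member in each direction (4.76%), against 5.68% higher and 2.77% lower over all tested genes. The hormone insl3 had 927, 197, 885 and 55.4 CPM at age 9 and 83.5, 579, 268 and 41.3 CPM at age 4, so that neither age formed a group (log2 difference 1.09 ± 1.05, SE; edgeR adjusted p = 0.69). The cholesterol carrier star, which feeds steroid synthesis, ran from 29.9 to 222 CPM at age 9 and from 34.4 to 134 CPM at age 4. In contrast, the androgen receptor ar had 26.5, 29.1, 28.9 and 30.9 CPM at age 9 and 14.0, 12.1, 14.1 and 19.6 CPM at age 4. The 4 age 9 testes lay within 5 CPM of each other and above all age 4 testes (log2 difference 0.95 ± 0.24, SE; edgeR adjusted p = 0.162). The estrogen receptor esr2a was at 1.30 with overlap by less than 1 CPM. The steroid enzyme hsd20b2 was lower without overlap, at 40.7 ± 4.91 CPM against 56.8 ± 4.84 CPM (SD, n = 4 each), a log2 difference of -0.48.

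Germ cell lists had negative medians. Of 22 spermatogonia and germline regulators tested, 2 were higher (9.09%) and 3 lower (13.6%) at an unadjusted p below 0.05. Over all tested genes these shares were 9.01% and 5.38%. The median was -0.24, with 15 negative and 7 positive differences. On the lower side, the germline gene nanos3, the stem cell factor pou5f3 and the migration receptor cxcr4b were at -1.85, -1.62 and -1.03, each with overlap. On the higher side, the translational repressor nanos1 was at 1.37 without overlap, and the PIWI protein piwil1, which silences transposons, was at 0.44 with overlap.

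Of 18 meiosis genes tested, 6 were lower (33.3%, against 5.38% of all tested genes) at an unadjusted p below 0.05 and 0 were higher. The median of the 18 was -0.53, with 16 negative differences. The recombinase dmc1 had 74.4, 59.2, 72.2 and 61.0 CPM at age 9 and 123, 117, 102 and 91.2 CPM at age 4. The ages did not overlap, and the age 7 testes, between 57.8 and 85.0 CPM, were closer to age 9 (log2 difference -0.70 ± 0.16, SE; edgeR adjusted p = 0.149). The nuclease spo11, which makes the double-strand breaks of meiosis, had 20.9, 18.3, 30.7 and 12.2 CPM at age 9 and 40.6, 45.5, 50.8 and 41.7 CPM at age 4. It showed no overlap either, at a log2 difference of -1.12 ± 0.31 (SE; edgeR adjusted p = 0.178). Of the synaptonemal complex, which pairs chromosomes, syce3 was at -0.85 without overlap and sycp1 at -0.35 with overlap. In sycp1 the overlap came from 1 age 4 testis at 169 CPM, while the other 3 lay between 385 and 454 CPM and the age 9 testes between 244 and 305 CPM. DESeq2 called 3 of the 18, dmc1 among them, at an adjusted p of 0.00345. Its share of calls over all genes was 2.72%. In the fit on all 16 libraries, 2 of the 18 were lower at an unadjusted p below 0.05.

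The sperm flagellum list, 56 genes tested for the tail built after meiosis, had 0 members at an unadjusted p below 0.05 in either direction. Its median was -0.29, with 47 negative and 9 positive differences. The axonemal dynein dnah3 had 129, 118, 89.0 and 88.3 CPM at age 9 and 163, 202, 101 and 103 CPM at age 4, with overlap (log2 difference -0.43 ± 0.30, SE; edgeR adjusted p = 0.554). The member with the smallest p, spata6, which joins the tail to the sperm head, was at -0.53 (edgeR adjusted p = 0.376). The mean of the list ran from 4.30 to 5.42 log2 CPM at age 9 and from 4.04 to 5.604 log2 CPM at age 4, so that age 4 held both the highest and the lowest testis.

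Of 43 mitotic cell cycle genes tested, 16 were lower at an unadjusted p below 0.05 and 0 were higher, with 5 without overlap and a median of -0.38. The replication clamp pcna had 369.9, 354, 462 and 484 CPM at age 9 and 779, 833, 598 and 1063 CPM at age 4. All age 4 testes were above all age 9 testes, and age 7 ran from 357 to 667 CPM across the gap (log2 difference -0.97 ± 0.23, SE; edgeR adjusted p = 0.149). The spindle checkpoint kinase ttk had 120.3, 95.7, 123 and 117 CPM at age 9 and 172, 146, 156 and 148 CPM at age 4, a log2 difference of -0.45 ± 0.14 (SE; edgeR adjusted p = 0.218). Kinetochore gene nuf2 and the division genes cdca8 and kif20a were at -0.47, -0.46 and -0.38, each without overlap. The thymidylate synthase tyms was at -0.91 with overlap. The proliferation marker mki67 averaged 389.8 ± 29.5 CPM at age 9 and 400.1 ± 108 CPM at age 4 (SD, n = 4 each). Leaving out age 4 replicate 4, the testis with the highest mean of this list, lowered the count to 8, and the fit on all 16 libraries gave 4.

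Of 52 DNA repair and telomere genes tested, 10 were lower (19.2%) and 2 higher (3.85%) at an unadjusted p below 0.05. Over all tested genes 5.38% were lower and 9.01% higher. The single-strand binding subunit rpa2, used in replication and repair, had 32.9, 21.3, 24.3 and 28.02 CPM at age 9 and 41.9, 44.4, 37.2 and 54.2 CPM at age 4, without overlap (log2 difference -0.74 ± 0.19, SE; edgeR adjusted p = 0.172). The mismatch repair gene pms2 and the helicase subunit ercc3 of excision repair were at -0.46 and -0.57, without overlap, while the excision nuclease subunit ercc1 was at 0.84, also without overlap. Of 37 senescence and secretory genes tested, 4 were higher (10.8%) and 4 lower (10.8%), with a median of -0.01. Over all tested genes the shares were 9.01% and 5.38%. No overlap was seen in 2 higher (5.41%) and 3 lower members (8.11%), against 5.68% and 2.77% of all tested genes. The cell cycle inhibitor cdkn2d had 22.01, 23.1, 25.9 and 18.5 CPM at age 9 and 42.4, 29.4, 36.9 and 31.9 CPM at age 4, without overlap (log2 difference -0.65 ± 0.17, SE; edgeR adjusted p = 0.174). The inhibitor cdkn1a was at -0.33 without overlap. The gelatin-cleaving protease mmp2 was at 1.23 without overlap and the growth factor binder igfbp7 at 1.39 with overlap.

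In the same 8 testes the endothelial and smooth muscle lists had positive medians and the mitotic and meiosis lists negative ones. The list means of the meiosis and mitotic genes overlapped between the ages. The summed level of the meiosis list lay between 1038 and 1484 CPM at age 9 and between 1589 and 2263 CPM at age 4, and that of the mitotic list between 3055 and 3924 CPM at age 9 and between 3629 and 5815 CPM at age 4. The part of a different mix of cells in these differences was not tested.

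**Figure D4:**
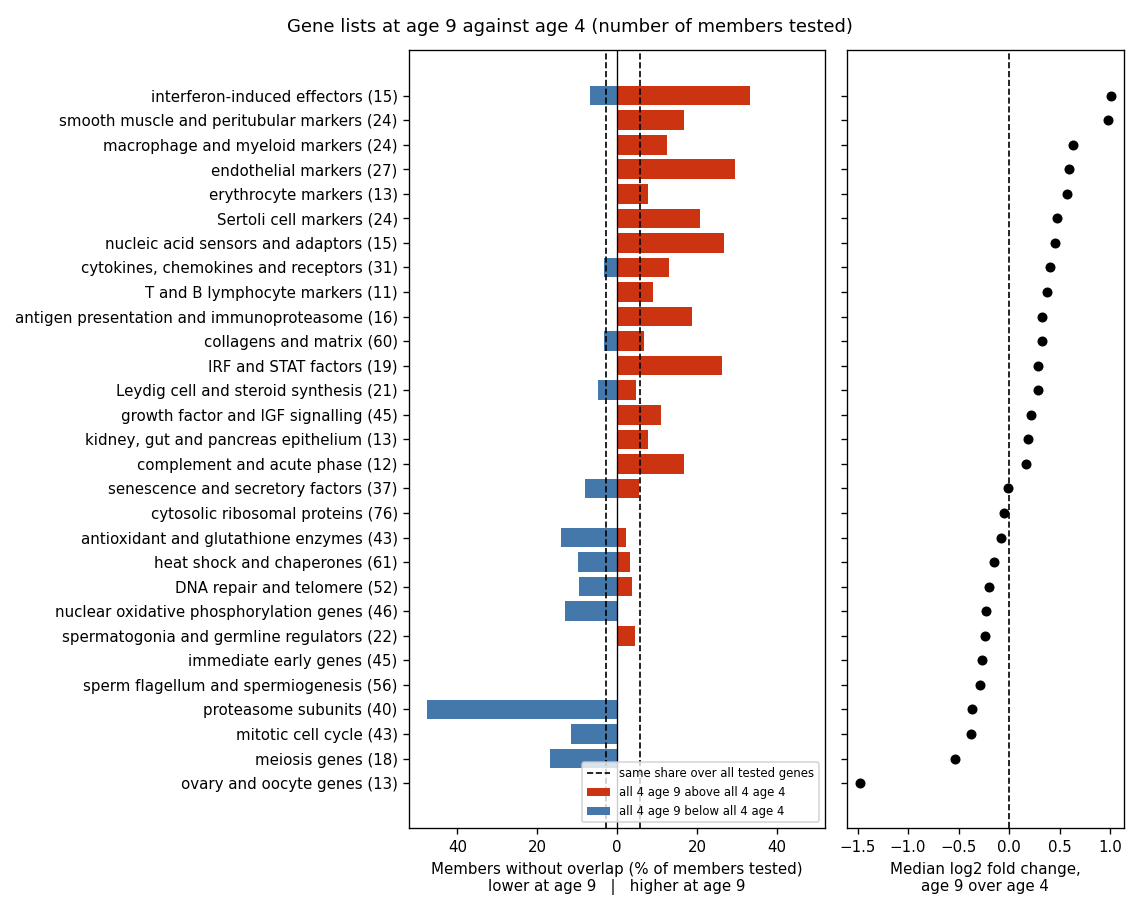
Left, share of the tested members of 29 gene lists whose 4 age 9 values all lie above (right of 0) or below (left of 0) the 4 age 4 values, with dashed lines at the shares over all tested genes, 5.68% and 2.77%. Right, median log2 difference of age 9 over age 4 per list. In the left panel interferon effectors and endothelial markers reach farthest on the higher side and the proteasome list on the lower side. In the right panel the highest medians are those of interferon effectors, 1.01, and smooth muscle markers, 0.98, and the lowest that of oocyte genes, -1.48.

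The proteasome list had the largest share of members without overlap of the 29 lists, 47.5%. The proteasome degrades proteins tagged with ubiquitin, and germ cells also carry a form of their own. Of 40 subunit and assembly genes tested, 19 were lower (47.5%) at an unadjusted p below 0.05 and 0 were higher. No overlap was seen in 19 (47.5%), all lower at age 9. Over all tested genes 5.38% were lower at that p, and 2.77% were lower without overlap. The median of the 40 was -0.37, with 36 negative differences. The differences were small, and the libraries within an age lay close together. The summed level of the 40 genes lay between 2630.0 and 2970.0 CPM at age 9 and between 3449 and 3753 CPM at age 4.

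The subunit psma8, which in mammals replaces a common subunit in the proteasome of spermatocytes, had 80.5, 64.6, 75.0 and 79.8 CPM at age 9 and 134, 130.0, 131 and 136 CPM at age 4. The 4 age 4 testes were nearly equal and far above age 9, and the age 7 testes, at 108, 113, 96.7 and 81.2 CPM, lay between. Its log2 difference was -0.82 ± 0.14 (SE; edgeR adjusted p = 0.0683), and voom called it with an adjusted p of 0.046. The catalytic subunit psmb7 had 58.3, 55.9, 62.2 and 51.6 CPM at age 9 and 93.2, 89.3, 93.7 and 95.5 CPM at age 4 (log2 difference -0.70 ± 0.14, SE; edgeR adjusted p = 0.0963). The core subunits psma5 and psmb3 were at -0.54 and -0.69 and the cap subunits psmd8 and psmd6 at -0.64 and -0.55, each without overlap. Positive differences were found for the activator psme4b, the inhibitor psmf1, psma6l and the assembly factor psmg3, at 0.40, 0.21, 0.29 and 0.09, each with overlap. DESeq2 called 9 of the 40, against 2.72% of all genes. In the fit on all 16 libraries 4 of the 40 were lower at an unadjusted p below 0.05.

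**Figure D5:**
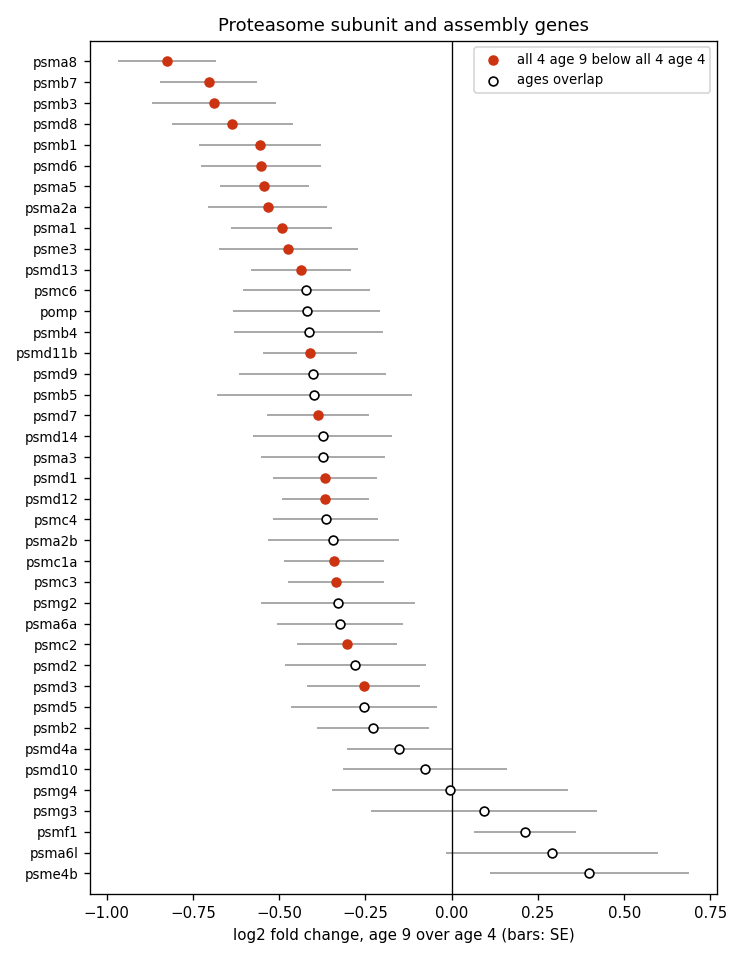
Log2 difference of age 9 over age 4 for the 40 tested proteasome subunit and assembly genes, with the SE. Filled points are the 19 genes whose 4 age 9 values lie below all 4 age 4 values; 36 of the 40 points lie left of 0.

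Mitochondrial and chaperone genes shared that direction in part. Of 46 nuclear genes of oxidative phosphorylation tested, 5 were lower (10.9%) at an unadjusted p below 0.05 and 0 were higher. Over all tested genes 5.38% were lower. Of these 46, 42 had a negative difference. No overlap was seen in 6, all lower (13.0%, against 2.77% of all tested genes). The complex I subunit ndufc2 had 36.7, 41.1, 52.4 and 42.8 CPM at age 9 and 71.1, 82.0, 66.1 and 67.2 CPM at age 4. The ages were clearly separate, and age 7 lay between 37.6 and 58.1 CPM, nearer to age 9 (log2 difference -0.73 ± 0.17, SE; edgeR adjusted p = 0.149). The ATP synthase subunit atp5pf and succinate dehydrogenase sdha were at -0.52 and -0.23, without overlap. Of 76 ribosomal protein genes tested, 0 were at an unadjusted p below 0.05, and the median was -0.05. The stalk protein rplp0, with the smallest p of the list, was at -0.40 (edgeR adjusted p = 0.358).

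Among 61 heat shock and chaperone genes tested, 7 were lower (11.5%) and 3 higher (4.92%) at an unadjusted p below 0.05. Over all tested genes 5.38% were lower and 9.01% higher, so the higher side of this list was below the background. The cytosolic chaperone hsp90aa1.2 had 322, 286, 299 and 222 CPM at age 9 and 659.5, 501, 374 and 439 CPM at age 4, without overlap (log2 difference -0.81 ± 0.20, SE; edgeR adjusted p = 0.162). The small heat shock protein hspb1, abundant in muscle cells, went the other way with 266, 168, 329 and 284 CPM at age 9 and 85.9, 129.6, 109.8 and 112 CPM at age 4 (log2 difference 1.26 ± 0.30, SE; edgeR adjusted p = 0.149). Its co-chaperone partner bag3 was at 0.66 without overlap. Of 43 antioxidant and glutathione enzymes tested, 7 were lower (16.3%) and 2 higher (4.65%), against the same shares over all tested genes. Superoxide dismutase sod1, which removes superoxide in the cytosol, had 129.6, 118, 114 and 140.4 CPM at age 9 and 189, 172, 164 and 185 CPM at age 4, without overlap (log2 difference -0.50 ± 0.14, SE; edgeR adjusted p = 0.178). The thioredoxin reductase txnrd3, a testis form in mammals, was at -0.59 and the peroxiredoxin prdx5 at -0.43, both without overlap.

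Immediate early genes respond within minutes to stimuli and to handling of tissue. Of 45 tested, 17 had a positive and 28 a negative difference, with a median of -0.27. At an unadjusted p below 0.05, 2 were higher and 5 were lower, and 0 of the 45 showed no overlap. Over all tested genes 9.01% were higher and 5.38% lower at that p. The higher side of this list was thus below the background and the lower side above it. The orphan receptor nr4a1 had 4.65, 3.15, 2.56 and 2.55 CPM at age 9 and 3.73, 6.09, 21.3 and 10.9 CPM at age 4, with overlap (log2 difference -1.70 ± 0.68, SE; edgeR adjusted p = 0.291). The factor klf6a was at 0.87 with overlap.

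Oocyte genes, known for building the egg coat and managing RNA in the egg, varied from fish to fish. Of 13 ovary and oocyte genes tested, 6 were lower at age 9 (46.2%) at an unadjusted p below 0.05 and 0 were higher. Over all tested genes 5.38% were lower. The median of the 13 was -1.48, but 0 of them showed no overlap. The egg coat gene zpd had 8.23, 1.85, 20.3 and 2.55 CPM at age 9 and 40.1, 145, 2.40 and 2.38 CPM at age 4. Age 4 replicates 1 and 2 were the highest. Age 4 replicates 3 and 4 were about as low as age 9 replicates 2 and 4, and below age 9 replicates 1 and 3. The RNA-binding gene zar1 and the RNA decay factor btg4 showed the same split, with age 4 replicates 1 and 2 at 8.44 and 23.3 CPM for zar1 and at 6.98 and 29.8 CPM for btg4. In age 4 replicates 3 and 4, zar1 had 0.686 and 1.12 CPM and btg4 had 0.686 and 0 CPM. The kinase wee2, an oocyte form of a cell cycle inhibitor, had the smallest p of the list, at a log2 difference of -1.22 ± 0.47 (SE; edgeR adjusted p = 0.279), with overlap.

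Markers of neighbouring tissue were checked as well. Of 13 epithelial markers of kidney, gut and pancreas tested, 2 were higher at age 9 at an unadjusted p below 0.05 and 0 were lower. These 2 are 15.4%, against 9.01% of all tested genes. Only 1 member (7.69%) was higher without overlap, against 5.68% of all tested genes. The secreted phospholipase pla2g1b had 51.4, 23.3, 47.3 and 14.8 CPM at age 9 and 8.77, 7.68, 4.98 and 9.52 CPM at age 4, without overlap (log2 difference 2.14 ± 0.67, SE; edgeR adjusted p = 0.212). The pancreatic protease prss1 lay between 6.62 and 17.2 CPM at age 9 and between 9.01 and 14.0 CPM at age 4. Of 13 erythrocyte markers tested, 9 had a positive and 4 a negative difference. At an unadjusted p below 0.05, 4 were higher (30.8%, against 9.01% of all tested genes) and 0 were lower. The erythroid factor klf17, at 1.47, was the only 1 higher without overlap (7.69%, against 5.68% of all tested genes). The smallest p of that list belonged to creg1, at 0.57 ± 0.22 (SE; edgeR adjusted p = 0.281), with overlap. The band 3 anion exchangers slc4a1a and slc4a1b had no counts at either age.

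Genes known only by a LOC number, among them the gene with the smallest p of all, are not described here. Among the other genes outside these lists, those with the smallest p were mostly of other functions. On the higher side the unconventional myosin myo15b had 40.3, 22.8, 50.4 and 37.4 CPM at age 9 and 11.2, 10.7, 10.8 and 10.8 CPM at age 4. The age 4 testes were nearly identical (log2 difference 1.79 ± 0.27, SE; edgeR adjusted p = 0.0683). The prostaglandin transporter slco2a1 had 63.0, 13.9, 105.0 and 94.6 CPM at age 9 and 3.90, 7.42, 4.63 and 9.52 CPM at age 4, with age 9 replicate 2 only a little above age 4 (log2 difference 3.43 ± 0.59, SE; edgeR adjusted p = 0.0683). The retinoid receptor rxraa had 51.5, 65.1, 51.1 and 71.7 CPM at age 9 and 26.1, 20.7, 28.8 and 24.2 CPM at age 4. Its age 7 testes, between 29.7 and 58.3 CPM, lay above all age 4 testes (log2 difference 1.26 ± 0.22, SE; edgeR adjusted p = 0.0683).

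The cannabinoid receptor cnr1 had 23.3, 37.9, 25.4 and 27.7 CPM at age 9 and 9.58, 14.1, 11.2 and 7.70 CPM at age 4 (log2 difference 1.42 ± 0.25, SE; edgeR adjusted p = 0.0683). The gene calcrl2, named for a receptor of calcitonin-type peptides, had 57.1, 50.5, 100.2 and 90.7 CPM at age 9 and 21.6, 20.01, 12.5 and 20.7 CPM at age 4 (log2 difference 1.99 ± 0.36, SE; edgeR adjusted p = 0.0718). Neither gene overlapped between the ages. The secreted protein c1qtnf1, the adhesion gene igsf9b and the actin regulator cdc42ep3 were at 1.72, 1.65 and 1.68. The mitochondrial phosphatase ppm1ka was at 4.32, with 37.4, 2.59, 52.9 and 21.9 CPM at age 9 and between 0.98 and 1.85 CPM at age 4, so that age 9 replicate 2 again lay near age 4. The cartilage matrix protein comp was at 2.95, also with 2 age 9 testes at 3.15 and 2.24 CPM well below the other 2, at 10.7 and 11.04 CPM.

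On the lower side, unc119b, a carrier of lipid-modified proteins, had 8.95, 10.2, 6.71 and 8.49 CPM at age 9 and 18.5, 26.1, 19.1 and 40.3 CPM at age 4 (log2 difference -1.60 ± 0.31, SE; edgeR adjusted p = 0.0963). The mitochondrial folate enzyme mthfd1l had 47.6, 31.6, 44.9 and 39.6 CPM at age 9 and 48.9, 98.3, 92.0 and 75.5 CPM at age 4, where replicate 1 almost met age 9 (log2 difference -0.94 ± 0.22, SE; edgeR adjusted p = 0.141). The ubiquitin ligase subunit skp2, which clears cell cycle inhibitors, was at -2.44 on only 11 counts at age 9 and 70 at age 4. The channel trpc7a, the homeobox gene emx1, the gene sinhcafl and the unnamed gene si:ch211-161h7.5 were at -1.50, -2.65, -1.003 and -2.06, each without overlap.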

How the data were processed

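The authors deposited raw counts for 50072 transcripts in a table for each library, which ends in 5 summary lines. Total RNA came from a Zymo Quick-RNA preparation with DNase I, and NEBNext Ultra II libraries were sequenced, per the labels' protocols. The submitters' processing notes name HTSeq 0.11.1, STAR 2.7.5, Trimmomatic 0.39, FastQC 0.11.9, edgeR 4.4.2 and MultiQC 1.10.1 (roles, strandedness and genome build: not given in the sources used here). Summary lines, 69.6% to 76.2% of the fragments of the 8 libraries, were left out; ambiguous fragments, 25.7% to 29.4%, include those shared by transcripts of 1 gene. Values of paralogs and of overlapping or antisense genes are uncertain for this reason. Intervals and floors cover counting error only.

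Counts were summed to 26356 gene symbols. Of the transcripts, 48916 matched RefSeq's gene table (assembly Billie_1.0). No library was a duplicate: within an age, pairs of libraries differed with a chi-square of at least 11.2 for each degree of freedom. The labels call the replicates biological. Genes were kept by filterByExpr (minimum count 10, total 15). The test was edgeR 4.0.16 (quasi-likelihood, robust, TMM factors 0.908 to 1.12) in R 4.3.3 on the 12 libraries of ages 4, 7 and 9, with 9 residual degrees of freedom, two-sided, with Benjamini-Hochberg adjustment over all 15171 genes. The common biological coefficient of variation was 0.349. Log2 CPM used a prior count of 2. Alternatives were upper quartile scaling, DESeq2 1.42.0 size factors, no filter or a filter of 1 CPM in 4 libraries, DESeq2, limma 3.58.1 voom with quality weights, fits on 8 or all 16 libraries, the replicate number as a block, transcripts as deposited, a table without ribosomal RNA or mitochondrial genes, and each library left out in turn. On simulated counts 5.63% of calls were false, and a set with no change gave 0 calls. Summaries used python 3.11.15, numpy 2.4.6 and pandas 2.3.3.

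The comparison, its 29 gene lists and the rule for named genes were chosen with earlier results of these data known. As no gene passed, the rule named the 10 symbols other than LOC numbers with the smallest p in each direction. It also named the member with the smallest p in each list. Its conditions of a mean of at least 1 CPM and no overlap held for called genes only. Other genes were named after their values were seen. Sequences and coordinates were not used here.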

Additional observations from a re-analysis of the deposited data

Results flagged for a closer look

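Of 266 groups of 4 testes examined, 11 held a testis far from the other 3 (gap to its neighbour over the whole range above Dixon's 95% critical value, on log2 CPM); chance gives this in about 1 in 20 groups. At age 9, replicate 3 was high for cmpk2, a nucleotide kinase of the interferon response, with 146 CPM against 78.1 to 85.9 CPM in the other 3 (ratio 0.848). For the mean of the macrophage list at age 9, replicate 4 was high, at 5.23 log2 CPM against 4.70 to 4.71 in the other 3 (0.985), and without it 3 members instead of 5 were at an unadjusted p below 0.05. For the means of the spermatogonia list (0.849) and the DNA repair list (0.844) at age 9, replicate 2 was low, at 3.88 and 4.62 log2 CPM.

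At age 4, replicate 1 was low for irf8, with 4.38 CPM against 11.62 to 13.1 CPM (0.888). Replicate 2 was low for sox17, with 1.06 CPM against 2.23 to 2.44 CPM (0.888), and for dtx3lb.2, with 0.265 CPM against 3.78 to 3.95 CPM (0.98). Replicate 3 was low for calcrl2, with 12.5 CPM against 20.01 to 21.6 CPM (0.859), and for the mean of the epithelial list, at 3.61 log2 CPM against 3.97 to 4.02 (0.873). Replicate 4 was high for amh, with 289 CPM against 68.4 to 81.3 CPM (0.88), and low for sycp1, with 169 CPM against 385 to 454 CPM (0.832).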

How the results depend on the processing

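The 0 edgeR calls became 372 with DESeq2 (254 higher, 118 lower at age 9; 1479 genes had no adjusted p), 33 with voom (28 and 5), 8 in the fit on 8 libraries (8 higher), 5 without a filter (5 higher), and 0 to 11 when 1 library was left out (0 to 9 higher, 0 to 2 lower), with 11 without age 9 replicate 2 and 1 without age 9 replicate 1; the cause was not tested. DESeq2 called 3 of 15 interferon effectors, 2 of 15 sensors, 1 of 19 IRF and STAT factors and 1 of 24 macrophage markers. It called 2 of 24 Sertoli, 3 of 18 meiosis and 3 of 43 mitotic genes. It also called 2 of 24 smooth muscle, 6 of 27 endothelial and 9 of 40 proteasome genes. Over all genes with an adjusted p DESeq2 called 2.72%. The voom method called 1 smooth muscle and 1 proteasome gene, against 0.218% of all genes. The 8-library fit called 1 smooth muscle gene, against 0.0545% of all genes. The medians of the lists named here kept their sign. That of IRF and STAT factors was 0.51 with voom; with 1 library left out, that of sensors ran from 0.22 to 0.51, of IRF and STAT factors from 0.21 to 0.50, of macrophage markers from 0.34 to 0.72, of Sertoli markers from 0.26 to 0.60, of smooth muscle from 0.64 to 1.08 and of proteasome genes from -0.46 to -0.35. Members at an unadjusted p below 0.05 in the fit on 16 libraries numbered 3 for Sertoli, 2 for meiosis, 4 for mitotic and 4 for proteasome genes. With 1 library left out they ran from 4 to 7 for IRF and STAT (4 without age 4 replicate 1), 3 to 7 for macrophage, 6 to 12 for smooth muscle, 4 to 8 for Sertoli and 8 to 24 for mitotic genes. In the 8-library fit, 0 interferon effectors were lower without overlap, since dtx3lb.2 was not tested there. Signs turned for amh (main 0.15, range -0.24 to 0.91 with 1 library left out; -0.24 without age 9 replicate 4; -0.06, -0.11 and -0.07 without age 4 replicates 1, 2 and 3), star (main 0.44, range -0.23 to 0.76; -0.23 without age 9 replicate 3) and hsd3b1 (main -0.04, range -0.63 to 0.31; 0.16 and 0.22 without age 9 replicates 2 and 4, 0.31 without age 4 replicate 4, 0.35 with voom). Replicate numbers did not pair the testes (same-number correlations 0.10, -0.21, -0.14 and 0.31); with the replicate block edgeR called 0 genes. In simulated counts with 4 fish per age and few genes changed, edgeR called 17.4% of the planted 2-fold differences.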
